A study of Mus musculus with 6 samples.

Results

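The SLAM family was examined here as 8 receptor or ligand genes (Slamf1, Slamf6, Slamf7, Slamf8, Slamf9, Cd48, Ly9 and Cd84) and 2 adaptor genes (Sh2d1a and Sh2d1b1). They were found by gene symbol, and each of the 10 had 1 probe set, out of 19936 genes measured. The family was chosen by its log2 levels in the IKZF1 and empty vector arrays, with the differences already known, in particular that of Slamf9. Differences of its genes are therefore given as a description, and no p-value is printed for them. Where a family gene is said to pass the threshold or not, this too is a description and no independent support.

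The arrays were hybridised with total RNA from mouse (C57Bl6, 4 weeks old, wild-type genotype) pre-B cells. All had been transformed by BCR-ABL1, a fusion kinase that drives Philadelphia chromosome-positive leukaemia. In the control group 3 samples received the empty retroviral vector pMIG, which marks cells with green fluorescent protein (GFP). In the IKZF1 group 3 samples received pMIG-IKZF1, which also carries the gene of Ikaros, a zinc finger transcription factor of lymphocyte development. Sorting for GFP took place 3 days after transduction. The labels do not name the promoter, species or isoform of the insert, nor whether the samples grouped together are separate cultures or animals. If they are not, the spread behind each p-value is technical only. In bulk RNA, fewer cells with a transcript and less of it per cell cannot be told apart.

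SLAM receptors are immunoglobulin-superfamily proteins related to CD2 that sit on haematopoietic cells. Most bind a copy of themselves on a neighbouring cell, while CD48 is held in the membrane by a lipid anchor and binds CD244 and CD2. Several carry tyrosine switch motifs in the cytoplasmic tail, which recruit the small adaptors SAP (gene Sh2d1a) and EAT-2 (gene Sh2d1b1) and through them Src family kinases or, in their absence, phosphatases. SLAMF8 and SLAMF9 have short tails without such motifs and are known mainly from myeloid cells.

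Upstream sequence was taken from RefSeq (build GRCm38.p6) for the 250 bases before the gene start, and 8 of the 10 genes had an entry (all but Ly9 and Sh2d1a). The windows of Slamf9 and Slamf7 are shown because these genes had the largest differences of the family. That of Slamf1 is shown because it held the most matches to GGGAA, the core of the Ikaros binding sequence. The Slamf9 window lies at chr1:172475110-172475359 on the plus strand, that of Slamf7 at chr1:171649000-171649249 on the minus strand and that of Slamf1 at chr1:171766882-171767131 on the plus strand. Capitals mark GGGAA on either strand (read as TTCCC on the other) and, in Slamf9, GAGGAAGT, a form of the sequence bound by the Ets factor PU.1, searched after the window had been read.
Slamf9: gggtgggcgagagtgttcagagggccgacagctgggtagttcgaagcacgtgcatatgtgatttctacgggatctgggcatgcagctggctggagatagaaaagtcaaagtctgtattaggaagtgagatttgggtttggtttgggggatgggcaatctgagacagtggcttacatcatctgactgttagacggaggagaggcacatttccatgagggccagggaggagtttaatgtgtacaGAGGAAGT
Slamf7: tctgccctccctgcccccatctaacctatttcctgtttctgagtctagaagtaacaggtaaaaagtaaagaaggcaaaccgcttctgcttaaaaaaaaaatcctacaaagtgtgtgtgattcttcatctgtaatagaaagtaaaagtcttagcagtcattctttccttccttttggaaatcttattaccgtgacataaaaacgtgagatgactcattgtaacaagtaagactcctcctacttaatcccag
Slamf1: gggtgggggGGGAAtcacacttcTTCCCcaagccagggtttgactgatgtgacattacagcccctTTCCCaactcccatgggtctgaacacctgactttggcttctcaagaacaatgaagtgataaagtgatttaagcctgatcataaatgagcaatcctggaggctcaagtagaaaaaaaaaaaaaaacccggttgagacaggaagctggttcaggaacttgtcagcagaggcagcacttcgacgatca

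GGGAA occurred in 2 of the 8 windows, 3 times in Slamf1 and 2 times in Sh2d1b1, and in 56.2% of 32851 such windows of the genome. The longer form TGGGAA, which contains it, was in the Slamf1 window and in 21.6% of all windows. GAGGAAGT was in the Slamf9 window, beginning 8 bases before the start, in no other of the 8, and in 2.44% of all windows. These are matches of letters in a short window, and binding was not measured here.

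Levels below are log2(intensity + 1), and differences are IKZF1 minus empty vector on that scale, which understates changes of dim genes. Background was judged by 1194 genes of olfactory and vomeronasal receptors, called the receptor genes here. The 95th percentile of their levels was 6.12 with the empty vector and 6.24 with IKZF1. Over all 6 arrays it was 6.18, the cut used where markers of a list are counted as above the range. Array medians of the linear intensity ran from 100.2 to 107. Ikzf1 itself was higher by 1.23 ± 0.07 (SE, n = 3 per group; adjusted p = 0.0021 in limma), and its levels of 13.06 to 13.14 with IKZF1 did not overlap those of 11.78 to 11.98 without. Of 13 pre-B cell markers measured, all lay above the receptor range. In limma 0 of them passed, where 2.25% of all genes passed, and 4 had an unadjusted p under 0.05. Their differences ran from -0.62 (Dntt) to 0.76 (Rag1). At that share, 0 passing in lists as short as those of markers and relatives, here and below, is not read as a result. Counts at an unadjusted p under 0.05, here and below, have no share of all genes beside them and are not read as results either. The surrogate light chain gene Vpreb1 had -0.01, and Vpreb2 had -0.38 (adjusted p = 0.11) and was lower with replicate number as a block (adjusted p = 0.030, in a range of 0.029 to 0.35 over 14 settings). Vpreb2 passed as lower in 3 of the 14, among them the block and the fit without empty vector 3 (adjusted p = 0.046). The comparison below addresses which SLAM family transcripts differ once IKZF1 is supplied to these cells.

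Of the 10 SLAM family genes 1 passed an adjusted p under 0.05 over all genes, against 2.25% of all genes. That gene was Slamf9, which fell, as did 1.13% of all genes. For 3 of 10 the groups did not overlap, against 26.5% of all genes. Slamf9 lay below, as did 11.3% of all genes, and Slamf7 and Cd48 lay above, as did 15.2%. The median difference of the 10 was 0.09 and that of all genes 0.03. Slamf9 and Slamf7 lay at opposite ends of the family, at -1.93 and 1.10, and 7 of the other 8 lay between -0.01 and 0.31, with Cd84 at -0.39.

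**Figure D1:**
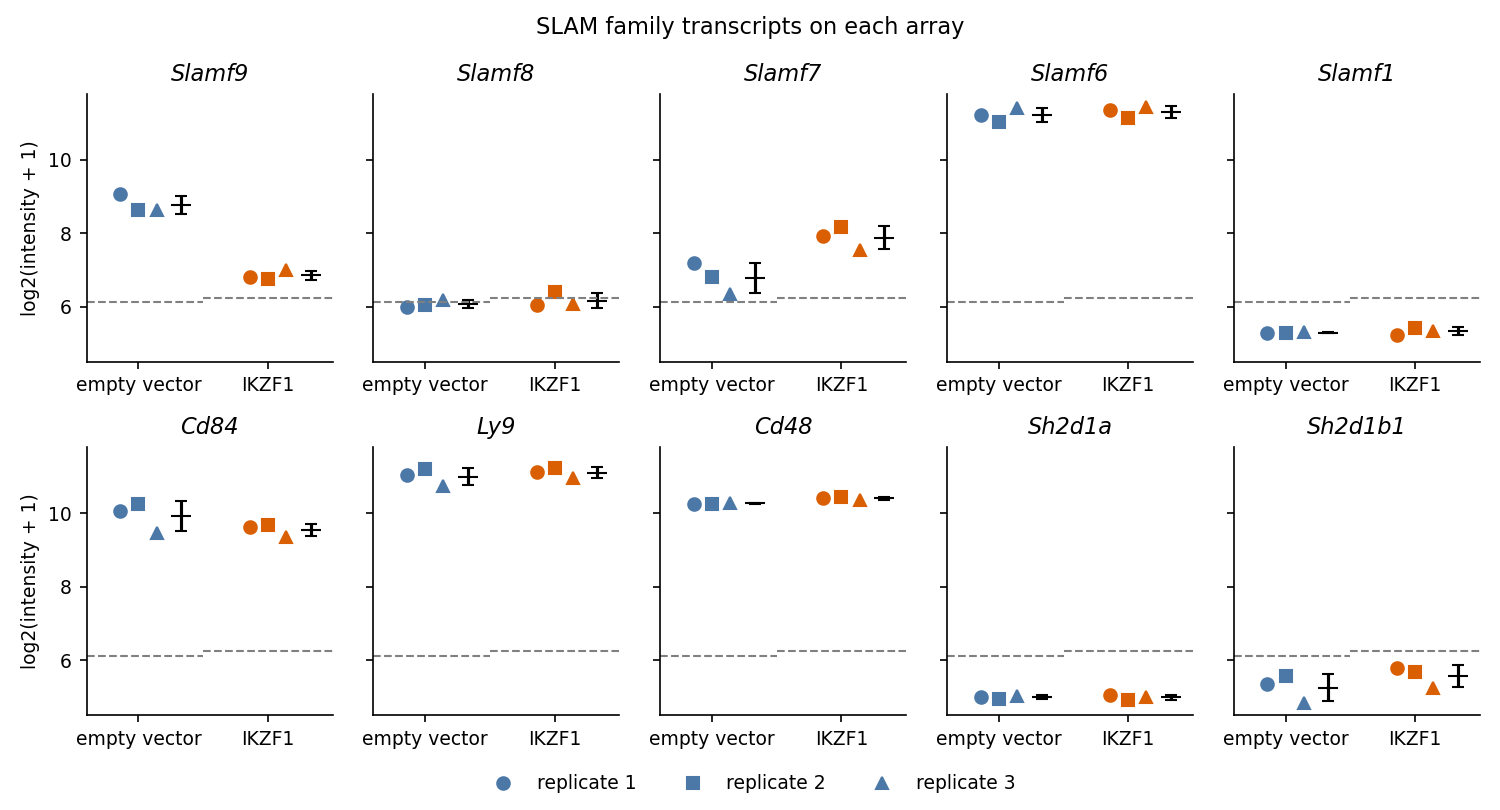
Level of each SLAM family transcript, as log2(intensity + 1), on the 3 empty vector arrays (blue) and the 3 IKZF1 arrays (orange). Symbols mark the replicate number, black bars give mean ± SD, and dashed lines mark the 95th percentile of receptor genes in each group. Slamf9 drops from a mean of 8.78 to 6.86 and Slamf7 goes from 6.78 to 7.88, while Slamf1, Sh2d1a and Sh2d1b1 stay under the dashed lines on every array.

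Slamf9, a receptor with a short cytoplasmic tail, had levels of 9.06, 8.64 and 8.64 on empty vector arrays 1 to 3. With IKZF1 its levels were 6.81, 6.77 and 7.00. Every IKZF1 array lay below every empty vector array, by a gap larger than the whole range of either group. The difference was -1.93 ± 0.13 (SE, n = 3 per group; 95% interval -2.25 to -1.60), an empty vector signal 3.80-fold that with IKZF1. It was the 6th lowest of the 19936 differences. By replicate number it was -2.26, -1.88 and -1.64. In linear intensity the gene went from 398 to 534 down to 108 to 127, which is still above the range of receptor genes. Slamf9 passed as lower in each of the 14 other settings run, with differences between -2.01 and -1.78. It passed only narrowly without IKZF1 1 and without IKZF1 2.

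Slamf8, the other short-tailed receptor and the nearest family member on the chromosome, lay within the range of receptor genes on average in both groups. Its levels were 5.99, 6.07 and 6.20 with the empty vector and 6.04, 6.40 and 6.07 with IKZF1, and the groups overlapped. The difference of 0.09 ± 0.11 (SE, 95% interval -0.19 to 0.36) does not reach the size seen for Slamf9 in either direction, although a change of so dim a gene would be understated.

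Slamf7, which encodes the receptor CRACC (CD319) of natural killer, activated B and plasma cells, had levels of 7.18, 6.81 and 6.36 with the empty vector. With IKZF1 they were 7.92, 8.17 and 7.55. The IKZF1 arrays all lay above the empty vector arrays, and the ranges came nearest at 7.55 against 7.18. The difference was 1.10 ± 0.24 (SE, n = 3 per group; 95% interval 0.52 to 1.67), or 2.14-fold, and it did not pass the threshold over all genes. By replicate number it was 0.73, 1.36 and 1.20, and with replicate number as a block its SE was 0.13 and Slamf7 passed as higher. With the block 2 of the 10 members passed, against 7.21% of all genes, and 1 passed as higher, against 3.36%. It did not pass in the 13 other settings, where the difference stayed between 0.77 and 1.30.

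Markers of cells that carry CRACC were set beside this. Of 10 natural killer cell markers 1, Prf1, lay above the receptor range. In limma 0 passed, against 2.25% of all genes, and 1 had an unadjusted p under 0.05. Ncr1, the defining receptor gene, had levels of 4.96 and 5.08, within the receptor range. Their summed intensity was 418 to 426 with the empty vector and 430 to 452 with IKZF1, higher with IKZF1 and without overlap. All markers but Prf1 lay within the receptor range. The 95th percentile of receptor genes was 6.24 with IKZF1 and 6.12 with the empty vector. The part of background in this sum was not tested. How often sums of other such genes do not overlap was not tested. Of 6 plasma cell markers 5 lay above the range, and 0 passed in limma, where 2 had an unadjusted p under 0.05. Their differences were above 0 for 3 and below 0 for 3. Jchain, the joining chain gene of secreted antibody, had 1.87 (adjusted p = 0.21), while the transcription factor genes Xbp1 and Irf4 had -0.32 and -0.21 and Sdc1, the gene of the plasma cell marker CD138, -0.01. Prdm1, the regulator of plasma cell differentiation, had 1.17 (adjusted p = 0.12). Its level of 6.15 with the empty vector lay near the 95th percentile of receptor genes there (6.12), and it was 7.32 with IKZF1. Like Slamf7, Prdm1 passed as higher with the block (adjusted p = 0.0043, in a range of 0.0043 to 0.38 over 14 settings). Without empty vector 3 it had 1.43 and passed too (adjusted p = 0.035), and in all it passed in 3 of the 14. The summed plasma cell intensity of 8204 to 8435 with IKZF1 lay within that of 7378 to 10023 with the empty vector. The part of such cells in the Slamf7 values was not tested.

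**Figure D2:**
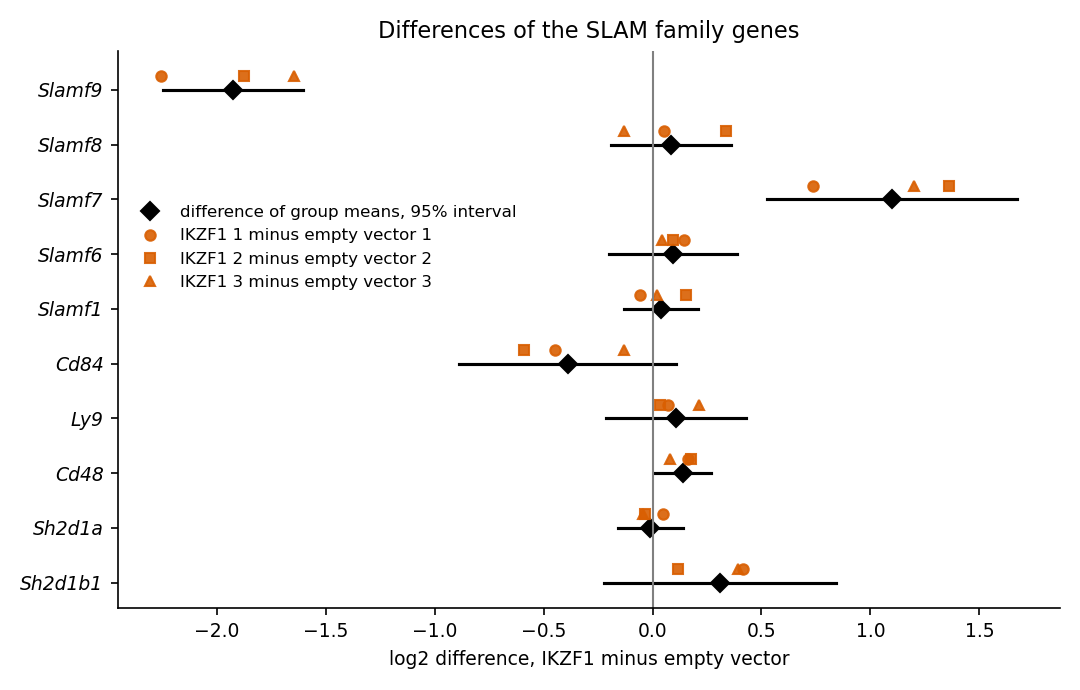
Log2 difference, IKZF1 minus empty vector, of each SLAM family gene. Black diamonds and lines give the difference of group means with its 95% interval from limma, and orange symbols give the difference within each replicate number. The interval of Slamf9 runs from -2.25 to -1.60, that of Slamf7 from 0.52 to 1.67 and that of Cd48 from 0.01 to 0.27. The family was chosen with these differences known, so the place of an interval against 0 is not a test.

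Cd84, a self-binding receptor with switch motifs, had levels of 10.06, 10.26 and 9.47 with the empty vector and 9.61, 9.67 and 9.34 with IKZF1. The groups overlapped because empty vector 3 was low. The difference of -0.39 ± 0.21 (SE, 95% interval -0.89 to 0.11) did not pass, and within replicate numbers it was -0.45, -0.59 and -0.13. Without empty vector 3 it was -0.62 and passed as lower. It did not pass in the 13 other settings, the replicate block included.

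Slamf6 and Ly9, both self-binding receptors that recruit SAP, had levels well above the receptor range in both groups. Slamf6 read 11.21, 11.04 and 11.40 with the empty vector and 11.35, 11.13 and 11.45 with IKZF1. The ranges were interleaved, and the difference was 0.09 ± 0.12 (SE, 95% interval -0.20 to 0.39). Ly9 read 11.04, 11.20 and 10.74 against 11.12, 11.23 and 10.95, again interleaved, with a difference of 0.11 ± 0.13 (SE, 95% interval -0.22 to 0.43). Both intervals ended below the lower end of that of Slamf7.

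Cd48, which encodes the lipid-anchored ligand of CD244 and CD2, was the least variable of the family members above the receptor range. It read 10.26, 10.26 and 10.29 with the empty vector and 10.42, 10.44 and 10.36 with IKZF1. The groups did not overlap, but the difference was small, 0.14 ± 0.05 (SE, 95% interval 0.01 to 0.27), and did not pass the threshold in any setting. It was 0.10 with arrays centred on their medians and 0.17 after quantile normalization.

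Slamf1, which encodes CD150, a marker of haematopoietic stem cells and the founding receptor of the family, stayed within the range of receptor genes. Its levels were between 5.23 and 5.44 on all 6 arrays, with a difference of 0.04 ± 0.07 (SE, 95% interval -0.13 to 0.21). The adaptor gene Sh2d1a also stayed within that range, between 4.92 and 5.05, with a difference of -0.01 ± 0.06 (SE, 95% interval -0.16 to 0.14). Sh2d1b1 read 5.36, 5.57 and 4.84 with the empty vector and 5.78, 5.69 and 5.23 with IKZF1, all within the range as well. Its difference was 0.31 ± 0.22 (SE, 95% interval -0.22 to 0.84), the groups overlapped, and the gene did not pass in any setting. A change in these 3 genes is not well measured, since a signal at background has only an upper bound.

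The family members differed in how much they varied between arrays of one group. Empty vector 3 was lower than the mean of empty vector 1 and 2 by a difference of -0.69 for Cd84, -0.64 for Slamf7, -0.63 for Sh2d1b1 and -0.38 for Ly9, and was higher by 0.28 for Slamf6. IKZF1 3 stood apart in the same direction for these 5 genes, by -0.30, -0.49, -0.50, -0.22 and 0.20. In all 7 of 10 members had the same sign in both groups, beside 64.3% of all genes. Slamf9 was not among them, with -0.21 in the empty vector and 0.21 in the IKZF1 group. What the replicate numbers mark is not stated in the labels.

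**Figure D3:**
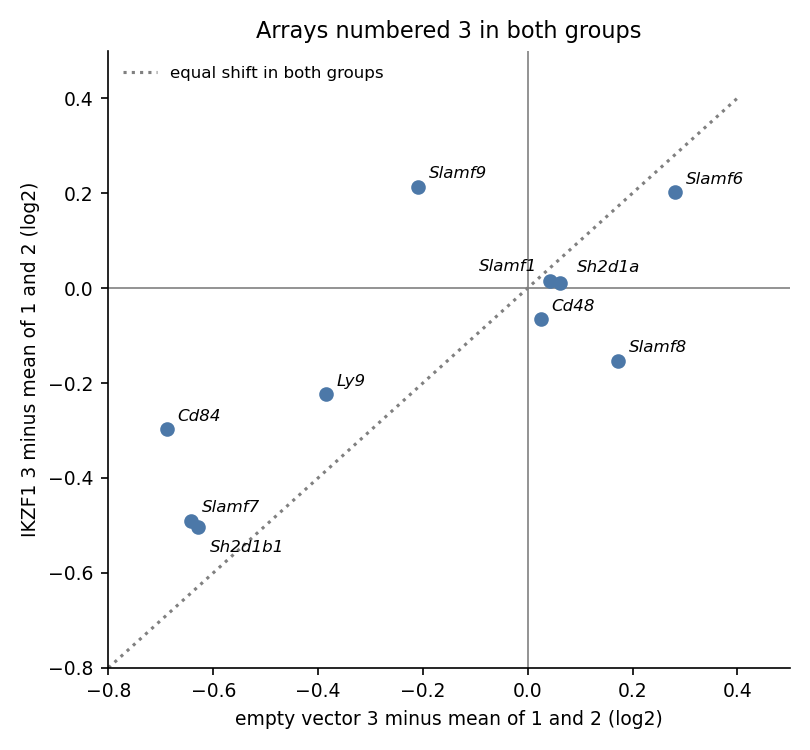
Array number 3 minus the mean of arrays 1 and 2 (log2), in the empty vector group (horizontal axis) and the IKZF1 group (vertical axis), 1 point per SLAM family gene. The dotted line marks an equal shift in both groups. Cd84, Slamf7, Sh2d1b1 and Ly9 lie low on both axes, Slamf6 lies high on both, and Slamf9 has opposite signs (-0.21 and 0.21).

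Relatives and partners of the family were tested in the same comparison. Of 5 relatives measured 0 passed in limma, against 2.25% of all genes, and 1 had an unadjusted p under 0.05. CD2 and CD244 are the receptors of CD48. Cd2 had a difference of -0.07 (adjusted p = 0.81), and Cd244a, the gene of CD244, one of 0.11 (adjusted p = 0.77). Sh2d1b2, a second EAT-2-like adaptor gene, had -0.16 (adjusted p = 0.46) and a level of 5.03 with the empty vector, within the range of receptor genes. The immunoglobulin-superfamily genes Igsf8 and Cd101 had -0.11 and 0.30 (adjusted p = 0.59 and 0.16).

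Of 29 measured signalling partners of SLAM receptors, which include Src family kinases, inositol and tyrosine phosphatases and adaptors, 1 rose, 0 fell and 28 did not pass, where 2.25% of all genes passed. With replicate number as a block 3 were higher and 0 lower, where 7.21% of all genes passed and 3.36% as higher. The median difference of the 29 was -0.01. The riser was Inppl1, which encodes the inositol phosphatase SHIP2. Its levels were 10.98, 10.83 and 11.06 with the empty vector and 11.83, 11.87 and 11.87 with IKZF1, with no overlap. The difference was 0.90 ± 0.07 (SE, n = 3 per group; limma, adjusted p = 0.0066). Over the 14 other settings the adjusted p of Inppl1 ran from 0.0010 to 0.057. It did not pass without empty vector 1 (0.057) or without IKZF1 1 (0.053).

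Dok3, an adaptor that recruits inhibitory phosphatases, and Syk, the tyrosine kinase downstream of the B cell receptor, were the other 2 partners that passed with the block. Dok3 had levels of 11.06, 11.29 and 10.44 with the empty vector and 11.83, 11.94 and 11.73 with IKZF1. The groups did not overlap, and the difference was 0.90 ± 0.21 (SE; limma, adjusted p = 0.093, and 0.023 with the block, in a range of 0.023 to 0.27 over 14 settings). Without empty vector 3 it was 0.65 and passed as well (adjusted p = 0.023), as it did with array weights (0.027). Syk had a difference of 0.32 ± 0.07 (SE; adjusted p = 0.069, and 0.047 with the block, in a range of 0.013 to 0.28). Syk also passed in limma after quantile normalization (adjusted p = 0.044) and with array weights (0.013). Pik3cd, the leukocyte phosphoinositide 3-kinase subunit gene, had 0.22 (adjusted p = 0.11).

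The position of the family genes was read from the gene order of the reference annotation, without coordinates. Ly9, Slamf7, Cd48, Slamf1, Cd84 and Slamf6 stand next to each other on chromosome 1, with no other measured protein-coding gene among the 6. Slamf9 lies 13 measured genes beyond Slamf6, and 4 more separate it from Slamf8. Sh2d1b1 lies on the same chromosome, 33 measured genes before Ly9, and Sh2d1a on the X chromosome. Slamf7 at 1.10 thus stands between Ly9 at 0.11 and Cd48 at 0.14, so that direct neighbours had unlike differences.

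The neighbours were the 5 measured genes on each side of each member and those between members, and Cd244a, Sh2d1b2 and Igsf8 of the relatives are among them. Of 70 measured neighbours 0 passed in limma, where 8 had an unadjusted p under 0.05, a cut-off with no share of all genes given. The block called 2 of them higher. Of all genes 2.25% passed in limma and 3.36% were called higher with the block. The 17 neighbours between Slamf6 and Slamf8 had differences from -0.18 to 0.29, which leaves the fall of Slamf9 outside their range. Igsf9, the gene next to Slamf9, had 0.09 and Pigm, on its other side, -0.18 (adjusted p = 0.75 and 0.28). Genes of Fc receptors, which bind the constant part of antibodies, and their relatives also lie on the segment. Fcgr4 had -0.10, Fcrl6 -0.12 and Fcer1g 0.11 (limma, adjusted p = 0.77, 0.91 and 0.68). The mean levels of Fcgr4 and Fcer1g lay within the receptor range in both groups, where a change is not resolved. Fcrl6 read 9.52, 9.39 and 7.66 with the empty vector, and its difference had an SE of 0.49. Whether these genes differed unlike the other Fc receptor genes is therefore not shown. Fcgr3 had levels of 7.45, 7.79 and 7.19 with the empty vector and 8.31, 8.50 and 7.88 with IKZF1. Its difference of 0.76 ± 0.20 (SE; limma, adjusted p = 0.13) passed with the block (adjusted p = 0.0088, in a range of 0.0088 to 0.38 over 14 settings). Fcgr2b, which encodes the inhibitory Fc receptor of B cells, had 0.48 (adjusted p = 0.18, and 0.043 with the block, in a range of 0.043 to 0.40). Fcrla, named like Fcgr2b, Fcgr4, Fcrl6, Fcer1g, Igsf9 and Pigm after its value was seen, had 1.15 (adjusted p = 0.23, and 0.083 with the block). Without empty vector 3, where it was lowest, its difference was 0.62 and it passed (adjusted p = 0.027, in a range of 0.027 to 0.47). The neighbours Arhgap30 (0.23) and Fcrlb (0.26) had adjusted p of 0.15 and 0.15 in limma. On the X chromosome, among the neighbours of Sh2d1a, 6030498E09Rik had 0.49 (adjusted p = 0.16). Its levels of 4.35 with the empty vector and 4.84 with IKZF1 lay within the receptor range, where a change is not resolved.

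**Figure D4:**
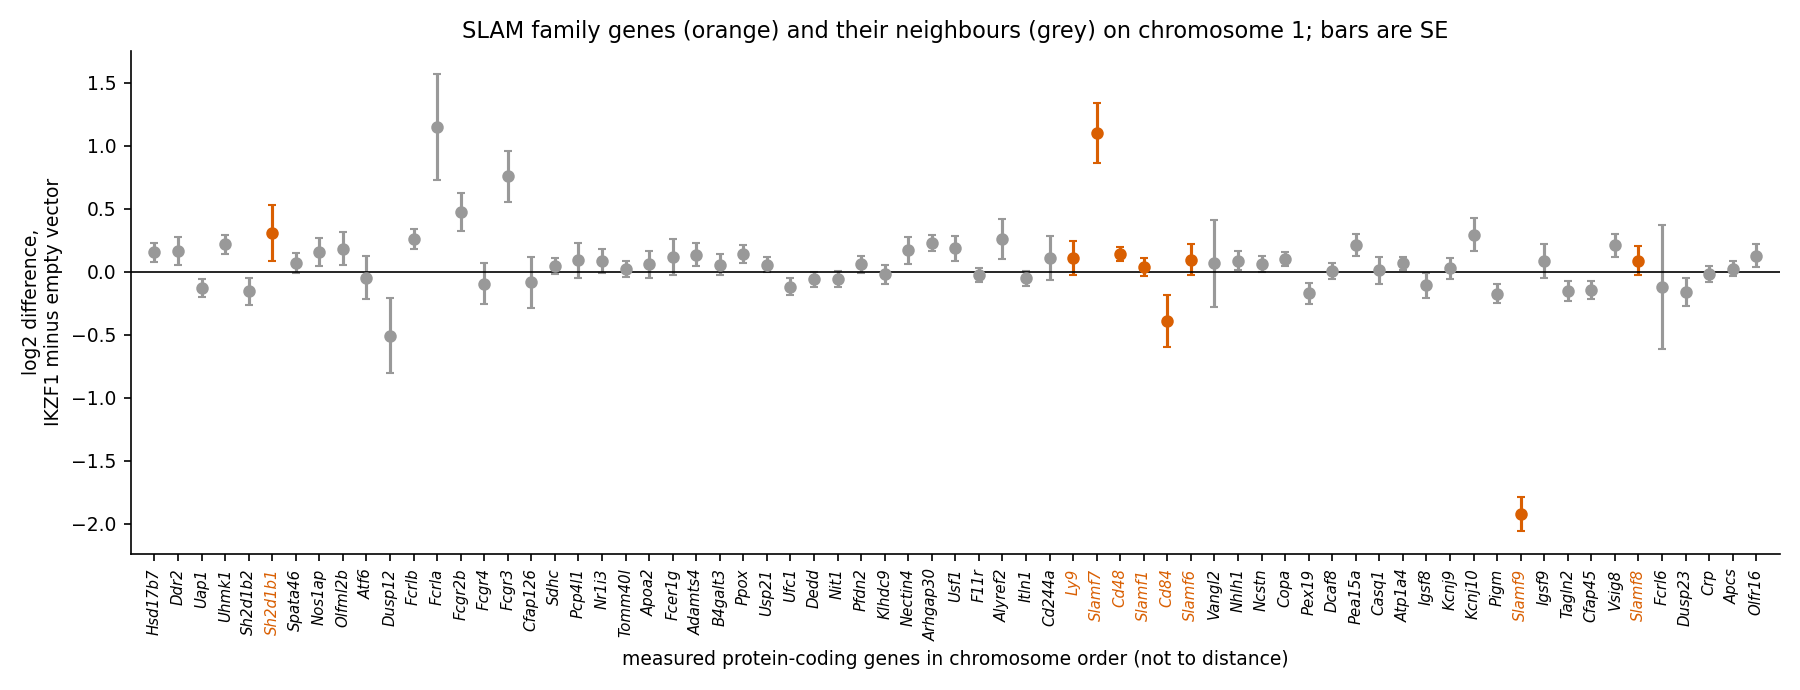
Log2 difference, IKZF1 minus empty vector (vertical axis), of 69 measured protein-coding genes in their order along chromosome 1 (horizontal axis, not to distance), with SE bars. SLAM family genes are orange and neighbours grey. Slamf9 (-1.93) lies far below its neighbours, and Slamf7 (1.10) above those beside it.

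The genes whose profile over the 6 arrays lay nearest to that of Slamf9 were Trib3, Itgal, Slc1a4, Trem1 and Efcab11. Likeness was the root mean square distance between log2 deviations from the 6-array mean, and these 5 lay at 0.20, 0.24, 0.25, 0.27 and 0.31. The measure is dominated by the difference between the groups, so the list is a description of genes that were lower by a like amount. Trib3, a pseudokinase gene of the amino acid stress response, had levels of 9.22, 8.82 and 8.54 with the empty vector and 7.02, 7.35 and 7.11 with IKZF1. Itgal encodes the alpha chain of the leukocyte integrin LFA-1 and differed by -1.59. Slc1a4, a neutral amino acid transporter gene, differed by -1.78, and Trem1, an activating receptor gene of myeloid cells, by -1.63. Efcab11, a gene of a calcium-binding fold protein, differed by -1.44. No other family member was among them: the nearest was Cd84 at a distance of 0.82, at place 1029 of 19935 genes.

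**Figure D5:**
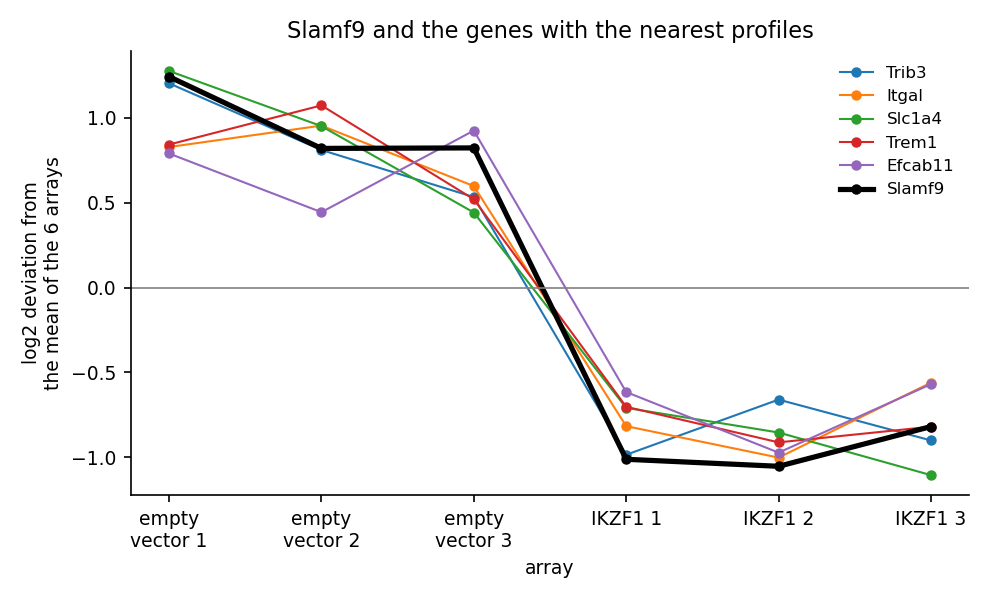
Log2 deviation from the mean of the 6 arrays (vertical axis) on each array (horizontal axis) for Slamf9 (black) and the 5 genes with the nearest profiles. Lines join the values of a gene, and arrays of a group have no order. All 6 genes lie above 0 on the empty vector arrays and below 0 on the IKZF1 arrays.

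Since Slamf9 and Trem1 are known from myeloid cells, markers of those cells were set beside the fall of Slamf9. Of 14 macrophage and monocyte markers 0 passed in limma, against 2.25% of all genes, and 1 had an unadjusted p under 0.05. The difference was above 0 for 9 and below 0 for 5. The 3 above the receptor range were Lyz2, Mrc1 and Cd68, with differences of -0.47, -0.25 and -0.02 (adjusted p = 0.20, 0.58 and 0.95). Lyz2 was barely above it over all arrays, with levels of 6.42 with the empty vector and 5.95 with IKZF1. The defining markers Csf1r and Cd14 had levels of 5.47 and 5.61 with the empty vector and 5.52 and 5.74 with IKZF1, all within the range of receptor genes. The summed intensity of the list was 963 to 1006 with the empty vector and 931 to 1009 with IKZF1. The part of such cells in the Slamf9 values was not tested. Of 11 granulocyte markers 2 lay above the range, and of 10 dendritic cell markers 4, with 0 passing in either list in limma at the adjusted threshold and 0 at an unadjusted p under 0.05. Their summed intensities were 578 to 622 against 570 to 650 for granulocyte and 2975 to 5430 against 4143 to 5049 for dendritic cell markers.

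Cells of the T lineage and early progenitors can carry several members, among them Slamf6, Ly9 and Slamf1. Of 11 T cell markers 4 lay above the receptor range. In limma 0 passed, against 2.25% of all genes, and 2 had an unadjusted p under 0.05. Their summed intensity was 711 to 749 with the empty vector and 754 to 914 with IKZF1, without overlap. Differences were above 0 for 10 markers and below 0 for 1, beside above 0 for 11811 of 19936 genes. For 4 the IKZF1 arrays all lay above the empty vector arrays, as for 15.2% of all genes. Most of these markers lay within the receptor range. The 95th percentile of receptor genes was 6.24 with IKZF1 and 6.12 with the empty vector. The part of background in the sum was not tested. Cd3e, the defining T cell receptor subunit gene, had levels of 6.95 and 7.34 (difference 0.39; limma, adjusted p = 0.21). It lay above the receptor range in both groups, with linear intensities of 120, 126 and 120 against 149, 201 and 139. The part of such cells in the values of the family was not tested. Of 7 stem and progenitor markers 0 lay above the range and 0 passed in limma, where 1 had an unadjusted p under 0.05, with summed intensities of 313 to 335 and 332 to 370.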

How the data were processed

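The authors deposited 1 intensity per probe set and array, made with RMA (robust multi-array average) according to the submitters' processing notes, with no version named. The values run from 11.1 to 23523 and were read as linear intensity. RMA evens out array distributions, so a shift shared by most genes would be damped. Of 35421 probe sets, 21789 had a single gene symbol, 1621 had several and 12011 are unnamed here. The brightest single-symbol probe set stood for each of 19936 genes, with no filter on level.

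Groups were set against each other on log2(intensity + 1) by lmFit and eBayes of limma 3.58.1 (R 4.3.3), 2-sided, with group alone as a term, Benjamini-Hochberg adjustment over all genes and a threshold of 0.05. The test was also run on data simulated from the means and variances of these arrays, with the outcome not given here. Precision is limited by the number of arrays. The members and lists were chosen with earlier results of these data known.

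Replicate numbers in the titles are shared between groups. Across genes, arrays of one number deviated together from the means of their groups (r = 0.24, 0.60 and 0.66), all above the limit of 0.1 set for pairing, so the fit with the number as a block is given where it changes a call or a count. One pair of unlike numbers also reached 0.11.

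Named genes were all members, Ikzf1, all measured relatives, partners and neighbours past the threshold or, up to 4 a list, with the smallest p, the 5 profiles nearest to Slamf9, and markers. Among the markers these were genes past the threshold and the defining ones. The other markers given with values, and Uvrag, were named after their values were seen, and so were the Fc receptor and adjoining genes so described. The alternatives were the replicate block, a pseudocount of 16, genes above the receptor range, quantile normalization, median centring, the mean of probe sets, an intensity trend, array weights and leaving out each array. Upstream windows were searched on both strands.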

Additional observations from a re-analysis of the deposited data

How the results depend on the processing

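The difference of Slamf9 kept its direction and its side of the threshold in all 14 alternatives run, narrowly without IKZF1 1 or IKZF1 2. The median difference of the family lay between 0.03 and 0.10 in each of them. The replicate block raised the count of genes past the threshold from 448 to 1438, that of family members from 1 to 2 (Slamf7 added), that of signalling partners from 1 to 3 and that of neighbours from 0 to 2. Array weights gave 1481 genes and 4 partners, 3 higher and 1 lower (Uvrag, -0.29), and quantile normalization gave 2 partners. Without single arrays the counts ran from 24 (without IKZF1 1) to 947 (without empty vector 3) for all genes, from 1 to 2 for family members, from 0 to 2 for partners and from 0 to 1 for neighbours. The second member was Cd84, without empty vector 3. The cause of these changes was not tested. Differences of Slamf1, Slamf8, Ly9 and Sh2d1a changed sign in 2, 1, 1 and 3 alternatives, and none of these genes passed in any. Slamf1, Slamf8, Sh2d1a and Sh2d1b1 lay near background, where array signal does not resolve a change, and were left out when brighter genes alone were tested.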
